A study of Mus musculus with 21 samples.

Results

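The 81 genes described here code for proteins of the cytosolic ribosome and were measured by RNA sequencing in 21 mouse hearts. They were chosen by name: of 19096 genes in the deposited gene matrix, 84 had a symbol starting with Rpl, Rplp or Rps and continuing with the number of a ribosomal protein. Of those 84, 3 (Rps3a2, Rps3a3 and Rps4l) are annotated as pseudogenes in GENCODE M21 and were left out, and kinases named Rps6k did not match. The 81 members were 46 proteins of the large subunit, 30 of the small subunit and 5 paralogs (Rpl3l, Rpl22l1, Rps27l, Rpl7l1 and Rpl39l). A paralog here codes for a distinct protein that is related to the protein of another member, its parent gene. The 76 genes that are not paralogs are called core members below.

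All hearts came from male C57BL/6NJ mice from the Jackson Laboratory, which entered the study aged 8 to 10 weeks. The mice ate chow or a high-fat diet (HFD, 60% of calories as fat) for 10 weeks, and received by retro-orbital injection an adeno-associated virus (AAV) that carried Renin or a null vector. Hearts were collected 6 weeks after injection. The 4 groups were chow without Renin (n = 4), chow with Renin (n = 6), HFD without Renin (n = 6) and HFD with Renin (n = 5). The sample titles call the groups without Renin novirus, while the series text describes a null vector, so "no-virus" is used here as the name of a group. In the series text the combination of HFD and Renin models heart failure with preserved ejection fraction, and either treatment alone is a constituent of that model. The labels do not give the promoter of the vector or the region of the heart. Each library is taken as 1 heart, and p-values measure the spread between these libraries.

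Ribosomal proteins surround the ribosomal RNA of the small subunit, which reads the messenger RNA, and of the large subunit, which joins the amino acids. Their messenger RNAs typically begin with a run of C and T bases, the terminal oligopyrimidine (TOP) tract, through which mTOR and LARP1 control their translation, so that output of the family can change with no change in RNA level. Most ribosomal proteins have a single active gene, but heart and skeletal muscle also make RPL3L, a muscle form of RPL3 that can take its place in the ribosome. Several ribosomal protein genes (Rplp0, Rps18, Rpl13a, Rpl32) serve as reference genes for quantitative PCR.

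Sequences are shown first for Rpl3l and Rpl3, the pair with the largest change among members that passed a filter on low counts. The first 120 coding bases of Rpl3l and Rpl3, read from the GENCODE M21 transcripts on GRCm38, differ at 31 positions, which are in capitals.
Rpl3l: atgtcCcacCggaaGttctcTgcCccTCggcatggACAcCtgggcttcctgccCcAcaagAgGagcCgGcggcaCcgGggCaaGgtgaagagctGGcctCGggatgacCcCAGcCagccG
Rpl3: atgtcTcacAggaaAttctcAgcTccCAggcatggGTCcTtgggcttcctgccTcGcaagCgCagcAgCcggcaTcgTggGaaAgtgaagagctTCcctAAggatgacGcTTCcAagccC
Over the whole coding sequence the genes were identical at 74.4% of 1208 aligned bases, with a longest identical run of 22 bases. Identity of the other paralogs to their parent genes was 70.8% for Rpl22l1 and Rpl22, 76.1% for Rps27l and Rps27, and 62.6% for Rpl7l1 and Rpl7. None of these 4 pairs shared a coding stretch of 31 bases.

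The next set shows the start of the gene, where a TOP tract would lie. Each sequence is 30 bases around the annotated start of transcription in RefSeq on GRCm38.p6, read on the strand of the gene, with the longest run of C and T in capitals. The core members Rps6 (chr4:86857353-86857382, minus strand), Rpl38 (chr11:114668565-114668594, plus strand), Rpl13a (chr7:45128731-45128760, minus strand) and Rps18 (chr17:33955651-33955680, minus strand) are followed by the paralogs Rpl22l1 (chr3:28805493-28805522, plus strand), Rps27l (chr9:66946071-66946100, plus strand), Rpl3l (chr17:24727811-24727840, plus strand) and Rpl7l1 (chr17:46782642-46782671, minus strand).
Rps6: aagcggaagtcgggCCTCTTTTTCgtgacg
Rpl38: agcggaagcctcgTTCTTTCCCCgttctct
Rpl13a: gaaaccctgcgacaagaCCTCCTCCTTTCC
Rps18: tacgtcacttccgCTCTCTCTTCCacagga
Rpl22l1: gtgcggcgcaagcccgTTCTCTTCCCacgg
Rps27l: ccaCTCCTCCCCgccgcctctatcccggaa
Rpl3l: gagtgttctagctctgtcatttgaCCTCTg
Rpl7l1: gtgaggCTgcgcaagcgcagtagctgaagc
The longest run was 10 bases in Rps6 and Rpl38, 13 in Rpl13a, 11 in Rps18, 10 in Rpl22l1 and 9 in Rps27l. It was 5 bases in Rpl3l and 2 in Rpl7l1. Short runs were not limited to these paralogs: the core members Rplp0, Rps19 and Rpl22 had 5, 4 and 4 bases. RefSeq promoter sequences were matched for 61 of the 81 members. A C followed by at least 5 further C or T bases lay within 20 bases of the start in 38 of 56 core members with a promoter (67.9%), against 32.7% of 26964 other genes. Of the paralogs, Rps27l, Rpl39l and Rpl22l1 had such a tract, and Rpl3l and Rpl7l1 did not. In promoters of 250 bases before to 50 after the start, searched on both strands, CCGGAAG (a form of the site of ETS factors) was found in 41.1% of core members and 9.86% of other genes, and GGGCGG (a form of the site of Sp1) in 60.7% and 38.2%. CACGTG, an E-box that Myc can bind, was found in 10.7% of core members and 8.09% of other genes. None of these 3 motifs was found in the promoter sequence of Rpl3l. Matches are letters in a window, not sites.

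Library totals ranged from 18.7 to 29.3 M (mega) estimated reads, and all 4 chow no-virus totals lay below those of the other 17 libraries, so that depth and group cannot be told apart in comparisons with chow no-virus. All 7 cardiomyocyte markers (Tnnt2, Myh6, Actc1, Tnni3, Ryr2, Pln, Myl2) had reads in every library, with a summed level of 43076 to 64888 CPM (counts per library scaled to the same total), as the heart label implies. Markers of adipose tissue (Adipoq, Plin1, Cfd, Lep, Cidec) were each at 0 in at least 1 library. Their sum varied between hearts, from 0.31 to 29.5 CPM in chow no-virus and from 0.15 to 9.92 CPM in the other groups. In this bulk tissue, fewer cells of a type and less RNA per cell cannot be told apart.

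Core members were abundant. The members together held 4.92% to 6.39% of all transcripts from genes outside the mitochondrial genome, on the TPM scale (a share of transcripts, corrected for transcript length). The median core member had a mean level of 237.05 TPM over the 21 libraries. The highest were Rpl13a, of the large subunit, at 818 TPM, Rplp1, of the acidic stalk that contacts elongation factors, at 689 TPM, and Rps2, near the messenger RNA entry of the small subunit, at 606 TPM. The lowest were the paralog Rpl39l at 0.367 TPM and the large-subunit genes Rpl12 at 9.96 TPM and Rpl5 at 10.7 TPM. Within a group, the coefficient of variation of CPM (median of the 4 groups) was 5.81% for the median core member, from 2.75% for Rps27a, whose protein is made fused to ubiquitin, to 17.5% for Rps27. The median was 7.15% over all genes with a mean CPM at or above the 10th percentile of the core members, and 12.1% over all genes tested. It was 13.0% for Rpl3l and 13.1% for Rpl22l1.

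**Figure D1:**
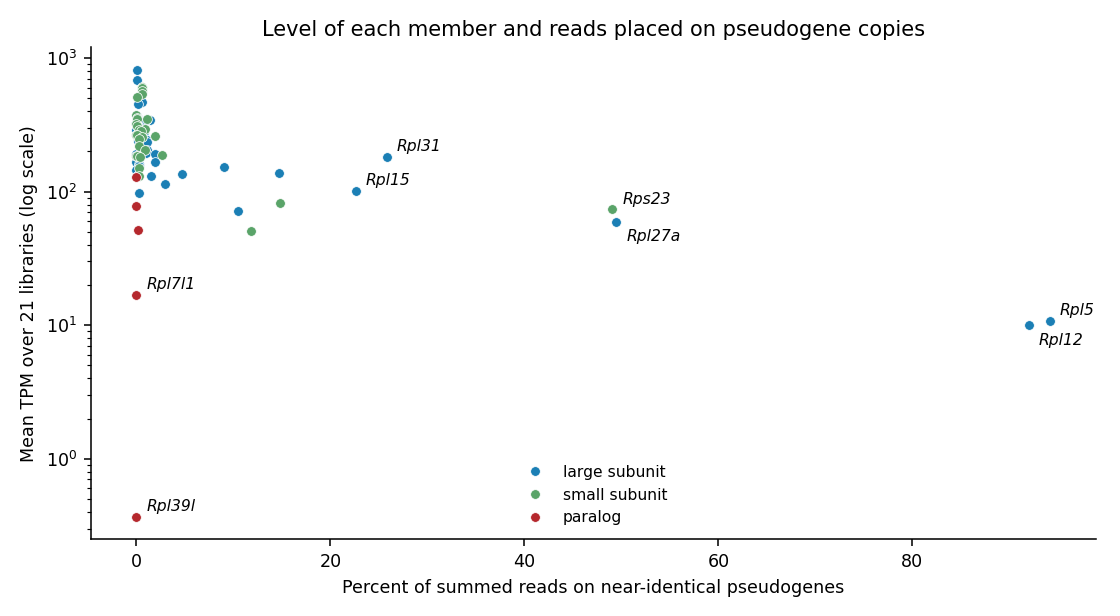
Mean TPM of each of the 81 members over 21 libraries (vertical axis, log scale) against the percent of reads placed on near-identical pseudogenes, of all reads of the gene and those copies (horizontal axis). Most members sit at the left edge, whereas Rpl5 and Rpl12 sit at the far right and near the bottom, with 10.7 and 9.96 TPM.

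The low levels of Rpl5 and Rpl12 went with reads placed on copies. Ribosomal protein genes have many processed pseudogenes, and 562 annotated pseudogenes were at least 95% identical to a member over at least 0.5 of its coding sequence. Of the summed reads of Rpl5, which carries 5S ribosomal RNA into the large subunit, and its copies, 94.2% were on copies, nearly all on Gm15500 (chr7:114705217-114706235, GRCm38), a transcribed processed pseudogene 100% identical over the aligned part. The corresponding share for Rpl12, at the base of the stalk, was 92.0%, mostly on Gm10275 (chr10:29698746-29699380). It was 49.5% for Rpl27a and 49.1% for Rps23, and above 5% for 11 members, whose levels are therefore uncertain. The other 70 members were under 5%, and the median was 0.311%. Adding the reads of these copies to the member genes left the same members called in every comparison.

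**Figure D2:**
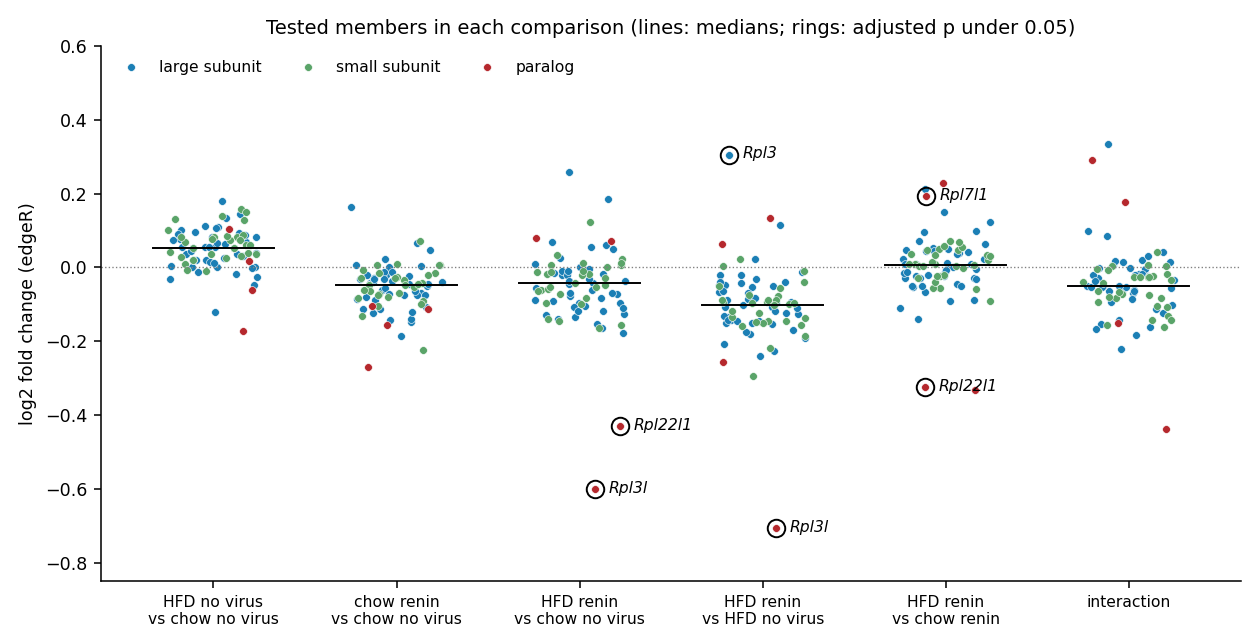
Log2 fold change (edgeR) of the 80 tested members (points, coloured by subunit or as paralogs) in each of 6 comparisons; lines are medians and rings mark an adjusted p under 0.05. Core members lie in narrow bands around small medians, from -0.10 to 0.055, and of the ringed points only Rpl3 is a core member.

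Differences between groups were tested with edgeR's quasi-likelihood test over all 15216 genes that passed a filter on low counts, with Benjamini-Hochberg adjustment over all of them, and a gene counts as called where its adjusted p was under 0.05. Of the 81 members, 80 passed the filter; Rpl39l did not. HFD with Renin was first set against chow no-virus, the comparison of the full model with its control. There 2 of 80 members (2.5%) were called, both paralogs and both lower, against 8.29% of all genes tested (4.05% higher, 4.25% lower). None of the 76 core members was called by edgeR, with 3 at an unadjusted p under 0.05, where 23.9% of all genes were, and DESeq2 also called only the same 2 paralogs. The median log2 fold change of core members was -0.043 and that of all genes tested 0.015. The largest positive values, none of them called, were 0.26 for Rpl12 (adjusted p 0.231), 0.19 for Rpl3 (adjusted p 0.260) and 0.12 for Rps26 (adjusted p 0.348).

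The lower of the called paralogs was Rpl3l (ENSMUSG00000002500, chr17:24727820-24736143 on GRCm38, plus strand). Its level in the 5 HFD Renin hearts was 88.3, 93.6, 152, 171 and 121 CPM. In the 4 chow no-virus hearts it was 198, 208, 156 and 199 CPM. The HFD Renin values reached into the chow no-virus range, with 1 of 5 above the lowest chow no-virus heart. It fell by 0.60 on the log2 scale (SE 0.158), with an edgeR adjusted p of 0.0238. This call was lost when any of chow no-virus replicates 1, 2 or 4 or HFD Renin replicates 1, 2 or 5 was left out, with adjusted p up to 0.0702 and a log2 fold change of -0.51 or lower. With a clock score as covariate, described below, it was lost as well, at -0.12.

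Rpl22l1 (ENSMUSG00000039221, chr3:28805436-28807424, plus strand) is the paralog of Rpl22, a large-subunit protein that is not essential for translation. Its level was 13.8, 12.1, 17.95, 16.2 and 11.2 CPM with HFD and Renin, and 21.8, 17.7, 18.7 and 18.5 CPM in chow no-virus. HFD Renin replicate 3 overlapped the chow no-virus range. The log2 fold change was -0.43 (SE 0.129, adjusted p 0.0396). Leaving out any single chow no-virus heart, or HFD Renin replicate 1, 2 or 5, raised the adjusted p above 0.05, up to 0.123, and the clock score as covariate moved the value to -0.19. The authors' deposited table lists Rpl3l with -0.41 on the log2 scale (adjusted p 0.00707), Rpl22l1 with -0.29 (adjusted p 0.0288) and no other member under 0.05. Its headers name HFD+virus, and the reference group is not stated.

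Renin on the HFD gave the largest change among the 80 members that passed the filter. In HFD Renin against HFD no-virus, 2 of 80 members (2.5%) were called, Rpl3l lower and Rpl3 higher, against 11.1% of all genes tested (6.07% higher, 5.08% lower). At an unadjusted p under 0.05 there were 19 of 80 members (23.8%), near the 26.5% of all genes. Rpl3l measured 176 CPM at the lowest, 197 at the median and 249 at the highest in the 6 HFD no-virus hearts, so that every HFD Renin heart, at 171 CPM or less, lay below them. The log2 fold change was -0.71 (SE 0.145, adjusted p 0.00476). It stayed called in 21 of 21 fits that each left out 1 library, with adjusted p up to 0.0178. With the clock score as covariate, described below, this call was lost, at -0.38 (edgeR adjusted p 0.553).

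Rpl3, the parent gene (ENSMUSG00000060036, chr15:80077791-80091868, minus strand), encodes a protein next to the peptidyl transferase centre. It measured 238.8, 187, 185, 183 and 185 CPM in HFD Renin. In HFD no-virus the lowest heart had 133 CPM, the median 151.5 and the highest 187. The groups overlapped, since 2 of 6 HFD no-virus hearts, both at 187 CPM, lay among 4 of the 5 HFD Renin hearts, and HFD Renin replicate 1 lay above all others. The log2 fold change was 0.31 (SE 0.089, adjusted p 0.0291). Without HFD Renin replicate 1 it was 0.22 (adjusted p 0.129), and the call was also lost without HFD no-virus replicate 1, 2 or 5. Of 12 other settings, 2 lost the call, namely the clock score and a score of central nervous genes as covariates. Over these 12 settings the log2 fold change ran from 0.17 to 0.42, with adjusted p up to 0.785.

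**Figure D3:**
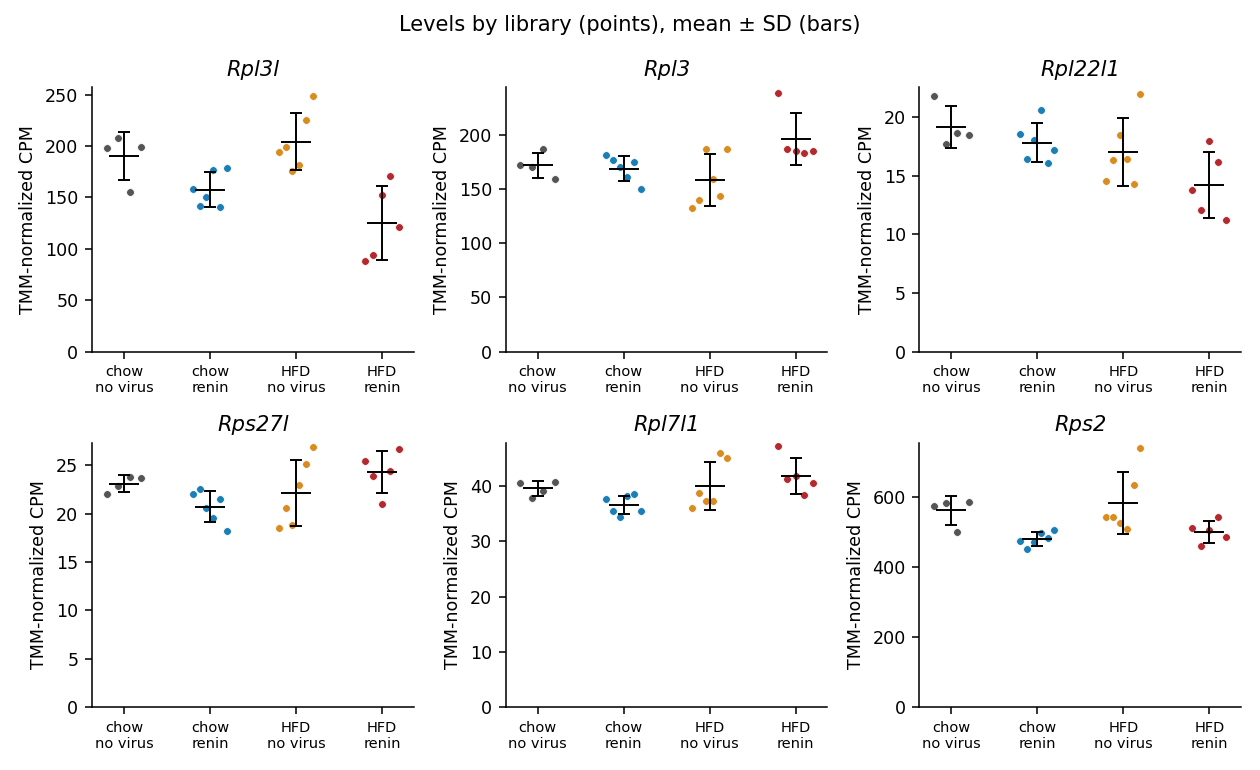
TMM-normalized CPM of 6 members in each of 21 libraries (points) with the mean and SD of each group (bars); all axes start at 0. In HFD Renin, Rpl3l lies between 88.3 and 171 CPM, below every HFD no-virus heart, whereas the other 5 genes overlap between these groups.

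The other core members shifted little in this comparison. Their median log2 fold change was -0.10, with 71 of 76 below 0, against -0.0064 for all genes. The shift is set in part by 1 library: without HFD no-virus replicate 6 the median was -0.032. On the scale of log2(TPM + 1) the core median was 0.021 and that of all genes 0.075. The lowest values after Rpl3l were -0.29 for Rps27 (adjusted p 0.271), -0.26 for Rpl22l1 (adjusted p 0.161) and -0.24 for Rpl31 (adjusted p 0.120). DESeq2 called 4 members, Rpl3l, Rpl3 and the small-subunit genes Rps2 and Rps4x, of which Rps2 had a log2 fold change of -0.22 and an adjusted p of 0.0802 in edgeR. Short protein-coding genes outside the family, with transcripts under 1000 bases, had a median of -0.075.

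HFD no-virus replicate 6 stood apart from all other libraries in this family. Its mean log2 CPM of core members was 0.35 above that of chow no-virus, while the other 20 libraries ranged from -0.10 to 0.056. It held the highest CPM of all 21 libraries for 70 of 76 core members. Its members took 6.39% of transcripts outside the mitochondrial genome, against 5.01% to 5.596% in the other 5 HFD no-virus hearts.

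**Figure D4:**
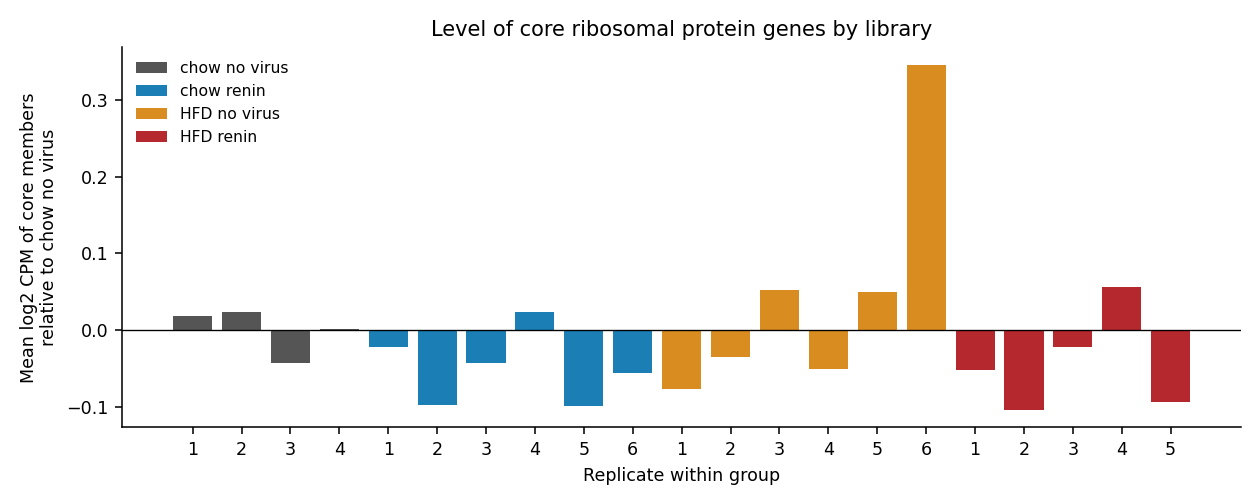
Mean log2 CPM of the 76 core members in each library, relative to the mean of chow no-virus (bars, starting at 0), with replicate numbers on the horizontal axis. HFD no-virus replicate 6 reaches 0.35, and the other 20 libraries lie between -0.10 and 0.056.

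The remaining contrasts called few members or none. HFD alone, against chow no-virus, gave 0 of 80 members by edgeR (1 at an unadjusted p under 0.05) and 0 by DESeq2. Of all genes, edgeR called 0.0657%, and 11.0% were at an unadjusted p under 0.05. The core median was 0.055 and fell to -0.0074 without HFD no-virus replicate 6. The largest values were 0.18 for Rpl36a, 0.16 for Rps14 and 0.15 for Rps20, and the lowest -0.17 for Rpl22l1, -0.12 for Rpl3 and -0.062 for Rps27l. Their adjusted p-values were 0.465 or more.

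Renin on chow gave 0 of 80 members by edgeR (2 at an unadjusted p under 0.05) and 0 by DESeq2. Of all genes, edgeR called 13.5% (10.1% higher, 3.36% lower), and 25.1% were at an unadjusted p under 0.05. The core median was -0.047, with 64 of 76 below 0, and -0.026 for all genes; on log2(TPM + 1) the core median was 0.056 and that of all genes 0.061. The lowest values were -0.27 for Rpl3l (adjusted p 0.288), -0.22 for Rps2 (adjusted p 0.0853) and -0.19 for Rpl5 (adjusted p 0.280). The highest were 0.16 for Rpl12, 0.073 for Rps26 and 0.065 for Rpl36a. Rps2 was lower in chow Renin, at 452, 480 and 508 CPM for the lowest, median and highest heart, than in 3 of 4 chow no-virus hearts, which ranged from 503 to 588 CPM. It was called without chow no-virus replicate 3 or without HFD no-virus replicate 6.

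HFD against chow in Renin-treated mice gave 2 of 80 members (2.5%), Rpl7l1 higher and Rpl22l1 lower, against 22.6% of all genes tested (9.80% higher, 12.8% lower). At an unadjusted p under 0.05 there were 5 of 80 members, against 33.7% of all genes. Rpl7l1 (chr17:46773907-46782672, minus strand), a relative of Rpl7, measured 47.2, 41.2, 41.9, 38.4 and 40.6 CPM with HFD and 34.4, 36.6 and 38.5 CPM at the lowest, median and highest of the chow hearts. Only HFD Renin replicate 4 lay within the chow range. The log2 fold change was 0.19 (SE 0.067, adjusted p 0.0400), and it did not hold on log2(TPM + 1), where the value was -0.0061. Rpl22l1 in the 6 chow Renin hearts measured 16.1, 17.6 and 20.6 CPM at the lowest, median and highest, and the 5 HFD hearts given above had 3 values below that range. Its log2 fold change was -0.32 (SE 0.117, adjusted p 0.0472). Rps27l, a p53-responsive paralog of Rps27, had 0.23 (adjusted p 0.0650) and Rpl3l -0.33 (adjusted p 0.107).

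Both calls were close to the threshold. Rpl7l1 lost its call in 12 of 21 fits that left out 1 library: chow no-virus replicates 1 and 2, chow Renin replicates 1, 2, 3, 5 and 6, HFD no-virus replicate 3 and HFD Renin replicates 1, 2, 3 and 5. Rpl22l1 also lost it in 12: chow no-virus replicates 3 and 4, chow Renin replicates 1, 2, 3, 4 and 6, HFD no-virus replicates 2 and 4, and HFD Renin replicates 1, 2 and 5. Adjusted p reached 0.225 and 0.152. Summed markers of central neurons (Snap25, Syt1, Rbfox3, Nefl, Slc17a7, Gad1, Nrxn3, all with reads in every library) measured 147.2 to 240 CPM in chow Renin and 45.6 to 81.8 CPM in the other 3 groups, and those of oligodendrocytes 87.9 to 148.8 against 28.6 to 53.3 CPM. With a score of central nervous genes as a covariate the members called fell to 0, and of all genes to 40.

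The interaction, the effect of Renin on the HFD minus that on chow, was called for 0 of 80 members by edgeR (2 at an unadjusted p under 0.05) and 0 by DESeq2. Of all genes, edgeR called 10.4% (3.14% higher, 7.30% lower), and 23.0% were at an unadjusted p under 0.05. Rpl3 had the highest value, 0.33 (adjusted p 0.112), followed by Rps27l at 0.29 and Rpl7l1 at 0.18. Rpl3l had the lowest, -0.44 (SE 0.211, adjusted p 0.220), followed by Rpl38, known for a role in translating Hox messenger RNAs, at -0.22 and Rpl36a at -0.18. Without HFD no-virus replicate 6, Rpl3 was called. The change of Rpl3l with Renin was thus not shown to differ between diets on this scale.

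Setting each paralog against its parent within a library removes the scaling between libraries. Mean log2(Rpl3l TPM / Rpl3 TPM) was 0.16 ± 0.26 (SD, n = 4) in chow no-virus, -0.078 ± 0.24 (n = 6) in chow Renin, 0.39 ± 0.29 (n = 6) in HFD no-virus and -0.64 ± 0.53 (n = 5) in HFD Renin. On the linear scale these means correspond to 1.11, 0.947, 1.31 and 0.642 Rpl3l transcripts per Rpl3 transcript. The 5 HFD Renin hearts ranged from -1.37 to -0.032, and 1 of the HFD no-virus hearts, at -0.098, fell among them. The difference between HFD Renin and HFD no-virus was -1.03 (SE 0.267, two-sided exact permutation p 0.00866, where the smallest possible is 0.00433). Adjusted over the 20 tests of 4 pairs in 5 comparisons it was 0.152, and 0 of the 20 tests were called. Even at the smallest possible p, 1 changed ratio in 1 comparison alone could not have been called over 20 tests. For the interaction of this ratio, -0.79, all 97020 exchanges of diet labels within the vector groups gave a permutation p of 0.0144 (adjusted over 4 pairs, 0.0577). These exchanges take diet to have no effect in either vector group. They are therefore not a test of equal diet effects alone.

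**Figure D5:**
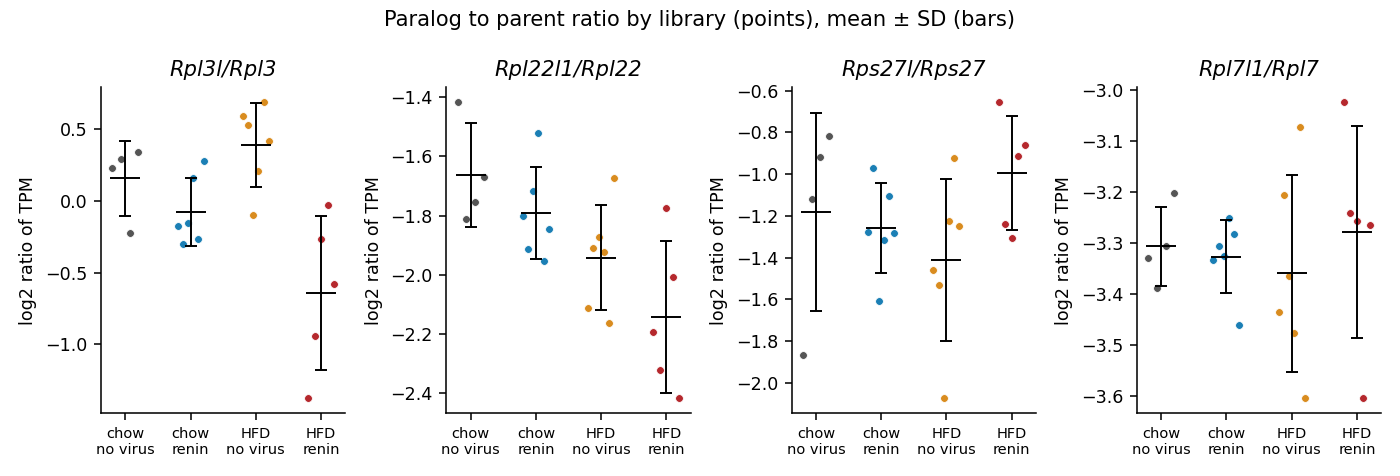
Log2 ratio of paralog TPM to parent TPM for 4 pairs in each of 21 libraries (points), with the mean and SD of each group (bars); the vertical axes differ between panels. Rpl3l/Rpl3 in HFD Renin spans -1.37 to -0.032, with 4 of 5 hearts below every HFD no-virus heart.

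The other pairs differed less. Mean log2(Rpl22l1/Rpl22) was -1.66 ± 0.17 (SD, n = 4) in chow no-virus, -1.79 ± 0.16 (n = 6) in chow Renin, -1.94 ± 0.18 (n = 6) in HFD no-virus and -2.14 ± 0.26 (n = 5) in HFD Renin, and HFD Renin overlapped each other group. HFD Renin minus chow no-virus was -0.48 (SE 0.144, exact permutation p 0.0317, adjusted 0.152). Rpl22 itself, at 88.9 to 95.9 CPM in the group means, was not called in any comparison. Mean log2(Rps27l/Rps27) lay between -1.41 and -0.996 and mean log2(Rpl7l1/Rpl7) between -3.36 and -3.28 in the 4 groups, and their smallest adjusted p was 0.210.

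Rpl39l, a paralog mainly known from testis, was near the detection limit, with 0 to 11 estimated reads in a library. Its reads summed to 16.0 in the 4 chow no-virus and 44.4 in the 6 chow Renin libraries, against 11.3 in the 6 HFD no-virus and 7 in the 5 HFD Renin libraries. With no filter on low counts, the log2 fold change of HFD Renin against chow Renin came to -2.33 (SE 0.605) with an edgeR adjusted p of 0.00808 (DESeq2 -2.43, SE 0.715, adjusted p 0.00543), and the groups did not overlap in reads, 0 to 3 against 3.62 to 11. Its parent Rpl39, at the exit tunnel of the large subunit, had a log2 fold change of 0.0078 in this contrast and was not called. Summed markers of central neurons were at 147.2 to 240 CPM in chow Renin, the group with the most Rpl39l reads, against 45.6 to 81.8 CPM in the other groups, and those of oligodendrocytes at 87.9 to 148.8 against 28.6 to 53.3 CPM. Their part in the difference of Rpl39l was not tested.

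The genes used as references were among those without a call in all 6 comparisons. Rplp0, the centre of the stalk, measured 463 ± 19.0 CPM in chow no-virus (n = 4), 426 ± 14.9 in chow Renin (n = 6), 468 ± 47.1 in HFD no-virus (n = 6) and 424 ± 18.1 in HFD Renin (n = 5). Its log2 fold changes ran from -0.14 to 0.014. Rps18 measured 108, 109, 110 and 105 CPM and Rpl32 92.4, 90.9, 90.8 and 87.9 CPM in the same order. Rpl13a had 326 ± 15.3, 316 ± 13.8, 342 ± 54.5 and 318 ± 19.2 CPM. Rps6, the substrate of S6 kinase, measured 214.4, 206.7, 220 and 206.5 CPM, and Rps19, mutated in Diamond-Blackfan anaemia, 81.0, 81.6, 88.6 and 80.0 CPM. Rpl10 and Rps4x were likewise not called by edgeR.

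Values for other features of the hearts stand beside the change of Rpl3l. The cardiomyocyte markers summed to 43076 to 50506 CPM in HFD Renin and 50668 to 59156 CPM in HFD no-virus, with no overlap. In chow no-virus they summed to 53347 to 64888 CPM, also above HFD Renin with no overlap. In chow Renin they summed to 49323 to 51881 CPM, below every chow no-virus heart and overlapping both HFD groups. The HFD Renin and HFD no-virus hearts had fibroblast markers at 501 to 727 and 381 to 778 CPM. Atrial markers (Myl7, Myl4, Sln, Nppa) summed to 118 to 1005 and 31.03 to 768 CPM. A clock score (day genes such as Dbp and Per2 minus Arntl, Npas2, Clock and Nfil3, in standard deviations) was -3.95, -1.24, 0.32, -0.19 and -1.16 in HFD Renin replicates 1 to 5 and 0.14 to 1.099 in HFD no-virus. The 3 HFD Renin hearts with the lowest clock scores were those with the lowest Rpl3l. With this score as a covariate Rpl3l had -0.38 on the log2 scale (edgeR adjusted p 0.553), and 0 of all 15216 genes were called in that contrast. In chow no-virus the score was 0.70 to 1.73, and with it as a covariate HFD Renin against chow no-virus gave -0.12 for Rpl3l (adjusted p 0.908) and -0.19 for Rpl22l1 (adjusted p 0.817), again with 0 of all genes called. The part of cell composition in the change was not tested.

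The ratio of Rpl3l to Rpl3 was also set beside 5 genes that were picked after their values were seen. The correlations are therefore given as a description only, and the permutation p-values computed for them are left out. The 21 libraries share their groups and depth differences. Over them, Pearson's r of the log2 ratio with log2 CPM was -0.87 (Spearman's rho -0.87) for Acta1, skeletal alpha-actin, -0.84 (rho -0.89) for Nppa, atrial natriuretic peptide, and -0.76 (rho -0.78) for Myh7, beta-myosin. For the atrial genes Myl7 and Sln r was -0.15 and -0.22 (rho -0.13 and -0.40). Leaving out HFD Renin replicates 1 and 2, whose ratios were farthest from the median, gave r of -0.84, -0.83 and -0.66 for Acta1, Nppa and Myh7 and -0.49 and -0.52 for Myl7 and Sln. For deviations from group means r was -0.65, -0.81, -0.48, -0.22 and -0.27 in the same order. Within chow Renin (n = 6) it was -0.80, -0.91, -0.49, -0.36 and -0.38, and within HFD no-virus (n = 6) -0.44, -0.68, 0.014, -0.78 and -0.79. Spearman's rho in the same order was -0.83, -0.77, 0.086, -0.14 and -0.26 within chow Renin and -0.14, -0.49, 0.14, -0.43 and -0.31 within HFD no-virus. The sign for Myh7 within chow Renin thus differed between r and rho, both were above 0 for Myh7 within HFD no-virus, and the order of the genes differed between these subsets.

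Genes that build and regulate ribosomes were counted in the same fits. Of 35 genes for RNA polymerase I and ribosome assembly, 5 were called higher and 1 lower in HFD Renin against HFD no-virus, where 6.07% of all genes were called higher and 5.08% lower. The highest were Heatr1 (0.46, adjusted p 0.0121), for ribosomal RNA transcription and small-subunit processing, Tsr1 (0.40, adjusted p 0.0233), for small-subunit maturation, and the nucleolar helicase Ddx21 (0.37, adjusted p 0.00513). Rrs1, for assembly of the 5S particle, was lower (-0.26, adjusted p 0.0259). The list's median was 0.091 and that of all genes -0.0064. These 6 genes are 17.1% of the list, against 11.1% of all genes. Against chow no-virus, HFD Renin had 6 of the 35 called (17.1%, against 8.29% of all genes), 4 higher, led by Tsr1 (0.45), Wdr12 (0.39) and Ddx21 (0.29), and 2 lower, Rrs1 (-0.49) and Polr1a (-0.22). Renin on chow had 3 called (8.57%, against 13.5%), 1 higher, Npm1 (0.23), and 2 lower, Ltv1 (-0.25) and Rrp9 (-0.24). HFD under Renin had 5 called (14.3%, against 22.6%), 2 higher, Ltv1 (0.34) and Bysl (0.29), and 3 lower, Rrs1 (-0.35), Nop56 (-0.20) and Npm1 (-0.19), and HFD alone had 0 (3 at an unadjusted p under 0.05; DESeq2 0). Ltv1 (0.40) and Bysl (0.45) were higher in the interaction (5.71% of the list, against 10.4%).

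Among 22 tested genes of mTOR and Myc control, Myc was called with the largest changes. The list's share called was 9.09% in Renin on chow (13.5% of all genes) and in Renin on the HFD (11.1%), 18.2% in HFD under Renin (22.6%), and 4.55% in HFD Renin against chow no-virus (8.29%) and in the interaction (10.4%). Myc measured 9.84 ± 0.726 CPM (SD, n = 6) in chow Renin and 4.29 ± 0.768 (n = 4), 4.496 ± 0.324 (n = 6) and 4.80 ± 0.405 (n = 5) in chow no-virus, HFD no-virus and HFD Renin. The log2 fold change of Renin on chow was 1.20 (SE 0.110, adjusted p 3.06e-08), and the interaction -1.10 (SE 0.149, adjusted p 1.31e-05). Markers of central neurons and oligodendrocytes also stood apart in chow Renin, at 147.2 to 240 and 87.9 to 148.8 CPM against 45.6 to 81.8 and 28.6 to 53.3 CPM elsewhere. The summed list for astrocytes (Gfap, Aqp4, Slc1a2, Slc1a3, Gja1) measured 342 to 449.6 CPM in chow Renin and 301 to 494 CPM in the other groups. It holds Gja1, which cardiomyocytes also express, so this sum cannot show whether astrocyte RNA differed. With the central nervous score as covariate the change of Myc with Renin on chow was 1.33 (SE 0.329, edgeR adjusted p 0.124) and its interaction -1.25 (adjusted p 0.478). In the same contrast of Renin on chow no member was called. Mtor was higher in HFD Renin than in HFD no-virus (0.41, adjusted p 0.0115) and chow Renin (0.32, adjusted p 0.0212), and Max lower than in HFD no-virus (-0.36, adjusted p 0.0257). Deptor, an inhibitor of mTOR, was higher in HFD Renin than in chow no-virus (0.40, adjusted p 0.00474) and chow Renin (0.38, adjusted p 0.000416). Mycn was higher (0.77) in HFD Renin than in chow Renin, and Sesn2 (0.37) in chow Renin than in chow no-virus. HFD alone called 0 of the 22 (2 at an unadjusted p under 0.05; DESeq2 0).

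A list of 16 genes whose messenger RNAs carry a TOP tract held translation factors and other genes, such as Nap1l1 and Hnrnpa1. Its shares called at an adjusted p lay near or below those of all genes. Renin on chow had 2 of 16 (12.5%, against 13.5% of all genes) higher, Nap1l1 (0.22) and the poly(A)-binding protein gene Pabpc1 (0.22), and HFD Renin had Nap1l1 (1 of 16, 6.25%, against 8.29%) higher than chow no-virus (0.20). Against chow Renin, 3 of 16 (18.75%, against 22.6%) were called, with Eef1g (0.21) higher and Pabpc1 (-0.24) and Hnrnpa1 (-0.20) lower, and Eef1g was higher in the interaction (0.31; 1 of 16, 6.25%, against 10.4%). HFD Renin against HFD no-virus had 0 of 16 by edgeR (against 11.1% of all genes) and 1 by DESeq2. At an unadjusted p under 0.05 this contrast had 6 of 16, or 37.5%, above the 26.5% of all genes. HFD alone had 0 by either tool (0 at an unadjusted p under 0.05). Eef1a2, the elongation factor form of adult heart and muscle, was not called in any comparison, with a range from -0.039 to 0.084. Of 8 tested genes of ribosome rescue, Abce1 was higher in HFD Renin than in HFD no-virus (0.35, adjusted p 0.00303), 1 of 8 or 12.5% against 11.1% of all genes. Rnf10 (0.18) and Map3k20 (0.32) were higher than in chow Renin, 2 of 8 or 25.0% against 22.6%. Both shares were close to those of all genes.

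Mitochondrial ribosomal proteins, a separate family of 78 tested genes, gave other counts in the same fits. Renin on chow had 21 of 78 lower (3.36% of all genes were lower) and 0 higher, with a median of -0.18, where the 80 cytosolic members had 0 calls and a median of -0.048. HFD under Renin had 18 of 78 higher (9.80% of all genes) and 1 lower, with a median of 0.12, against 0.0067 for the cytosolic members. The interaction had 10 of 78 higher (3.14% of all genes) and 0 lower. These contrasts hold chow Renin, where the central neuron and oligodendrocyte markers stood at 147.2 to 240 and 87.9 to 148.8 CPM, above the other groups. With the central nervous score as covariate, edgeR called 0 of 78 in Renin on chow (1 at an unadjusted p under 0.05), in HFD under Renin (1) and in the interaction (0), and the 3 medians changed sign, to 0.078, -0.085 and -0.12, the last from 0.14. That fit was less precise, with a median SE of 0.231 against 0.0771 in Renin on chow, and called 32, 40 and 27 of all genes in these contrasts. In the contrasts without chow Renin, HFD Renin had 9 of 78 lower (4.25% of all genes) and 0 higher than chow no-virus. Against HFD no-virus it had 7 lower (5.08% of all genes) and 3 higher (6.07%). With the central nervous score as covariate these counts were 5 lower and 0 higher against chow no-virus, and 7 lower and 0 higher against HFD no-virus. HFD alone called 0 of 78 by edgeR and by DESeq2 (4 at an unadjusted p under 0.05 by either tool). The difference between the families was not tested.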

How the data were processed

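RNA of 21 hearts was sequenced, 1 library per heart. Per the submitters' processing notes, Salmon 1.10.2 and DESeq2 1.40.2 were used, with the mouse build GRCm38; their roles and options are not given in the sources used here. Per the file headers and values, the authors deposited for each library estimated counts (expected counts, not whole and not normalized) and TPM per transcript. A deposited gene matrix holds a normalized signal per library, and the authors' own log2 fold change and adjusted p-value, whose reference group is not stated.

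The 119215 transcripts, 98.0% matched to GENCODE M21, were summed to genes and rounded, since the estimated counts took the place of the raw counts that the tests were laid out for. Depth was 18.7 to 29.3 M (mega) reads. Tests used edgeR 4.0.16 (R 4.3.3; TMM, filterByExpr, 1 quasi-likelihood fit with a term per group, Benjamini-Hochberg over 15216 genes, calls at adjusted p under 0.05), and the fit was tested on simulated counts. Standard errors are the absolute log2 fold change over the square root of F. Ratios were tested by two-sided exact permutation (scipy 1.17.1). Log2 CPM used a prior count of 2. Pseudogene copies were found with BLAST 2.17.0. Alternatives used DESeq2 1.42.0 and limma 3.58.1 (log2 with a pseudocount of 1), upper-quartile factors, no filter, other counting, covariates, the replicate number as a block, and each library left out. Limma on the signal, leaving out mitochondrially encoded genes, adding near-identical pseudogene reads and the exchange of diet labels for the interaction of ratios were chosen after seeing the data.

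Members, lists and tests were chosen with earlier results of these data known. Named are the paralogs and their parents, reference genes, Rps6, Rpl38 and Rps19, the 3 highest and lowest members by TPM, up to 5 called members per direction in each comparison (the 3 largest where none was called), and up to 3 called genes per direction of each other list. Acta1, Myh7 and Nppa, with Myl7 and Sln, were added for the correlations, which are given without p-values, after the values were seen. Across 46 pairs of libraries of a group, chi-square per degree of freedom was 3.51 or more, so none was a repeat of another. The result of a further list of genes is not reported here.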

Additional observations from a re-analysis of the deposited data

Results flagged for a closer look

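For 23 quantities in 4 groups each, the highest or lowest library was checked for standing apart from the rest of its group (Dixon's test at the 95% level). Of 92 checks, 7 did, and chance gives about 1 in 20. In HFD no-virus, replicate 6 stood apart in the core level, at 0.35 against -0.077 to 0.052 in the other 5 hearts, and in TPM of Rpl3l, at 185 against 126 to 145, of Rplp0, at 418 against 288 to 334, and of Rps19, at 297 against 146 to 194. These 4 values come from 1 library. Rpl3 in HFD Renin replicate 1 was 194 TPM, against 133 to 140.9 in the other 4. Rplp0 in HFD Renin replicate 2 was 296 TPM, against 326 to 337. Rpl39 in chow no-virus replicate 1 was 90.1 TPM, against 99.2 to 101 in the other 3.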

How the results depend on the processing

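Members called in HFD Renin against HFD no-virus, 2 in the reported fit, numbered 4 with DESeq2, 1 with the central nervous score as covariate and 0 with the clock score. Against chow no-virus, 2 became 1 with limma on log2(TPM + 1) and 0 with the clock score. Against chow Renin, 2 became 1 with upper-quartile factors, protein-coding transcripts only or mitochondrially encoded genes left out, and 0 with either covariate or limma on the deposited signal. The called genes also changed there, from Rpl22l1 and Rpl7l1 to Rpl22l1 and Rpl39l with no filter, Rpl22l1, Rpl39l and Rpl7l1 with DESeq2, and Rpl22l1, Rpl3l and Rps3 with limma on log2(TPM + 1). Rpl7l1 in that contrast reversed on log2(TPM + 1), to -0.0061, and with the central nervous score, to -0.18; the cause was not tested. Leaving out 1 library gave 0 to 2 members in HFD Renin against chow no-virus, 1 to 6 against HFD no-virus, 0 to 3 against chow Renin, 0 to 1 in chow Renin against chow no-virus and in the interaction, and 0 in HFD against chow without Renin. Called paralog ratios stayed at 0 of 20, where 1 changed ratio alone could not have been called.

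With the replicate number as a block, 1 member (Rps2) was called in chow Renin against chow no-virus and the other counts of members did not change. Same-numbered libraries correlated from -0.23 to 0.42 in 28 pairs of libraries, 11 of them over 0.1. All pairs of replicate 3 were at 0.22 to 0.42, above those of the other numbers. The numbers were not taken as pairs, and differently numbered libraries were not set beside them.

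Limits are the small groups, the depth that differs with group, and the 11 members with over 5% of reads on pseudogene copies. The median of core members, small in the reported fit, changed sign with limma on log2(TPM + 1) in 4 comparisons, where it was 0.056, -0.070, 0.021 and -0.10 for Renin on chow, HFD alone, Renin on the HFD and HFD under Renin; the medians of all genes moved the same way, to 0.061, -0.076, 0.075 and -0.061. With the central nervous score it was 0.10 for Renin on chow, -0.14 for HFD under Renin and -0.22 for the interaction, and with the clock score 0.030 for HFD Renin against chow no-virus and 0.0029 for Renin on chow. The block gave 0.013 for the interaction. For HFD under Renin, 0.0067 in the reported fit, it was below 0 in 6 further settings, down to -0.047. Counts of the lists of assembly, control and TOP genes also moved with the setting, to 0 to 7, 0 to 5 and 0 to 4 genes.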
